A study of Mus musculus with 15 samples.

Results

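The apical endocytic receptor machinery of the kidney proximal tubule was followed as 9 genes named from the biology of receptor-mediated uptake: Lrp2, Cubn, Amn, Dab2, Clcn5, Ocrl, Lrp1, Lrpap1 and Fcgrt. They were named by function and not by a rule on their measured values, but with earlier results of these data known. All 9 were found on the array, of 20659 named genes, and all 9 were among the 16032 genes bright enough to be tested. Kidney RNA came from male C57/BJ mice whose left kidney was removed at 6 weeks of age (uninephrectomy, UNX) or that had a sham operation, and that were then given a high-fat diet (HFD) or a low-fat chow diet (LFD) until they were killed 20 weeks later. The 4 groups were HFD-UNX (4 arrays), HFD-sham (3 arrays), LFD-UNX (4 arrays) and LFD-sham (4 arrays), drawn from groups of 6 mice. The UNX kidney was therefore the kidney that had remained alone for 20 weeks, and each array held RNA of a whole frozen kidney labelled as a separate mouse.

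Proximal tubule cells take back the proteins that pass the glomerular filter by binding them to large receptors on the brush border and drawing them in through clathrin-coated pits. Megalin (Lrp2), a giant member of the low-density lipoprotein receptor family, and cubilin (Cubn), which is anchored to the membrane by amnionless (Amn), bind albumin, vitamin carriers and many other ligands. Bound cargo is freed in acidifying endosomes and sent to lysosomes, while the receptors return to the surface. Loss of the endosomal chloride-proton exchanger ClC-5 (Clcn5) or of the inositol phosphatase Ocrl impairs this uptake in the human disorders Dent disease and Lowe syndrome.

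The regions just upstream of 3 of these genes are shown. Lrp2 and Cubn encode the receptor pair megalin and cubilin. Clcn5 was the only member with a probe that passed the test between diets when each probe was fitted on its own, as given below. All 9 members matched the RefSeq promoter table (GRCm38.p6), Dab2 and Clcn5 with more than 1 start. Each line below gives the 250 bases before an annotated start, 5′ to 3′ on the gene's strand, with motif matches in capitals. The windows are chr2:69586030-69586279 (minus strand) for Lrp2, chr2:13491877-13492126 (minus) for Cubn, chrX:7319359-7319608 (minus) for the first Clcn5 start and chrX:7188715-7188964 (minus) for the second.
Lrp2: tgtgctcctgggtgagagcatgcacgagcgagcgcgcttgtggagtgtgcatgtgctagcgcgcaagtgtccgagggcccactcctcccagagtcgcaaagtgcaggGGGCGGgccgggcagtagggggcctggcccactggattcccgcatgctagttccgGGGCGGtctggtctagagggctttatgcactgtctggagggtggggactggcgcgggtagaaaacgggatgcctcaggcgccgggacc
Cubn: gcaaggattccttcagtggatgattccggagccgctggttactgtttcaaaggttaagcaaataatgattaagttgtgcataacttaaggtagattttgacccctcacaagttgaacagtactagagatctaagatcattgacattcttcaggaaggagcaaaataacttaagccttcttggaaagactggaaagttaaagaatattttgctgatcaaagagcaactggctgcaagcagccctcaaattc
Clcn5, start 1: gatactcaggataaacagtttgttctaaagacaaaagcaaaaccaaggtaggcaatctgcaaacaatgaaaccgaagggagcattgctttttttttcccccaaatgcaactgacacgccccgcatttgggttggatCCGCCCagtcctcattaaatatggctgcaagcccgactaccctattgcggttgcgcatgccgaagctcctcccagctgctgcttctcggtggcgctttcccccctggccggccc
Clcn5, start 2: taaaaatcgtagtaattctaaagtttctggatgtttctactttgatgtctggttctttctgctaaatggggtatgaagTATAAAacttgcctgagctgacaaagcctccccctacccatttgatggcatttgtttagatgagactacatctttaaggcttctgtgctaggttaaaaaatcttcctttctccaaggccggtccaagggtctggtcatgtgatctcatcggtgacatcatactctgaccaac
The motifs searched, on both strands, were the GC box (GGGCGG), the box named for its letters CCAAT, the TATA box (TATAAA), an element of the HNF1 type (GTTAAT) and an element of the nuclear receptor type (AGGTCA). The Lrp2 window held 2 GC boxes, 143 and 88 bases before the start, and was 66.4% G and C, whereas the Cubn window held none of the 5 motifs and was 39.6% G and C. The first Clcn5 window held 1 GC box, 114 bases before the start, and the second held 1 TATA box, 172 bases before the start. Of 32851 promoters of the same length, 32.7% held the GC box, 33.8% the box named CCAAT, 12.4% the TATA box, 6.43% the HNF1-type element and 14% the nuclear receptor element. A match describes these letters only.

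On the arrays, 60.5% to 73.4% of the non-control spots were well above background, and no spot was saturated. The share was 69.4% to 70.3% in HFD-UNX, 65.7% to 73.4% in HFD-sham, 60.5% to 65.6% in LFD-UNX and 60.7% to 64.4% in LFD-sham arrays. Every high-fat array was thus above every low-fat array in this share. The 75th percentile of the signal ran from 700.1 in HFD-sham replicate 1 to 3433 in HFD-sham replicate 3. Every value below is a log2 signal relative to that percentile of its own array, so that 0 is the level of a spot at the percentile. The 20 genes of a proximal tubule marker list that holds none of the 9 members were well above background on all 15 arrays, as were the 9 members. Scan days followed diet: slides 1 and 2 carried the high-fat arrays and were read on 1 day, and slides 3 (LFD-sham) and 4 (LFD-UNX) were read on another. Diet and scan day, and surgery and slide within the low-fat diet, therefore cannot be told apart. Slide 1 held HFD-UNX replicates 1 and 2 and HFD-sham replicate 1, and slide 2 the other 4 high-fat arrays. In whole kidney, fewer cells of a type and less RNA per cell cannot be told apart either.

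Across diets, no member rose or fell past the threshold (limma, Benjamini-Hochberg adjusted p under 0.05 over all genes tested). In sham mice 0 of 9 members were called between HFD and LFD, where 13.8% of all 16032 genes were called (6.83% higher, 6.94% lower). In UNX mice again 0 of 9 were called, where 14% of all genes were called (7.90% higher, 6.10% lower). Whether 0 of 9 departs from these shares was not tested. The median member difference, high-fat minus low-fat, was 0.02 in sham mice and 0.03 in UNX mice on the log2 scale, beside -0.0054 and 0.0021 over all genes tested. At an unadjusted p under 0.05, 1 member (Clcn5) passed in sham mice and 1 (Ocrl) in UNX mice, beside 30.1% and 29.4% of all genes. A difference that did not pass is not thereby shown to be absent. The 95% intervals below come from the fit without a slide term. They bound the difference between these groups of arrays and leave out variation between scan days. For diet they are therefore not limits on the effect of diet alone.

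No member was called between UNX and sham kidneys on either diet. On the low-fat diet, 0 of 9 members were called between UNX and sham, where 0.00624% of all genes (1 gene) was called with limma and 517 genes (3.22%) passed an unadjusted p under 0.05. On the high-fat diet, 0 of 9 members and 0% of all genes were called, and 741 genes (4.62%) passed an unadjusted p under 0.05. The interaction of diet and surgery also called 0 of 9 members and 0% of all genes, with 214 genes (1.33%) at an unadjusted p under 0.05. The median member difference, UNX minus sham, was 0.12 on the low-fat diet and 0.03 on the high-fat diet, beside 0.0077 and 0.022 over all genes. The members ran from -0.23 for Lrp1 to 0.29 for Amn on the low-fat diet, and from -0.13 for Ocrl to 0.21 for Lrp2 on the high-fat diet. For 0 of 9 members did UNX and sham arrays separate without overlap on either diet, against 2.57% of all genes with UNX higher and 2.05% with UNX lower on the low-fat diet, and 1.69% and 1.22% on the high-fat diet.

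**Figure D1:**
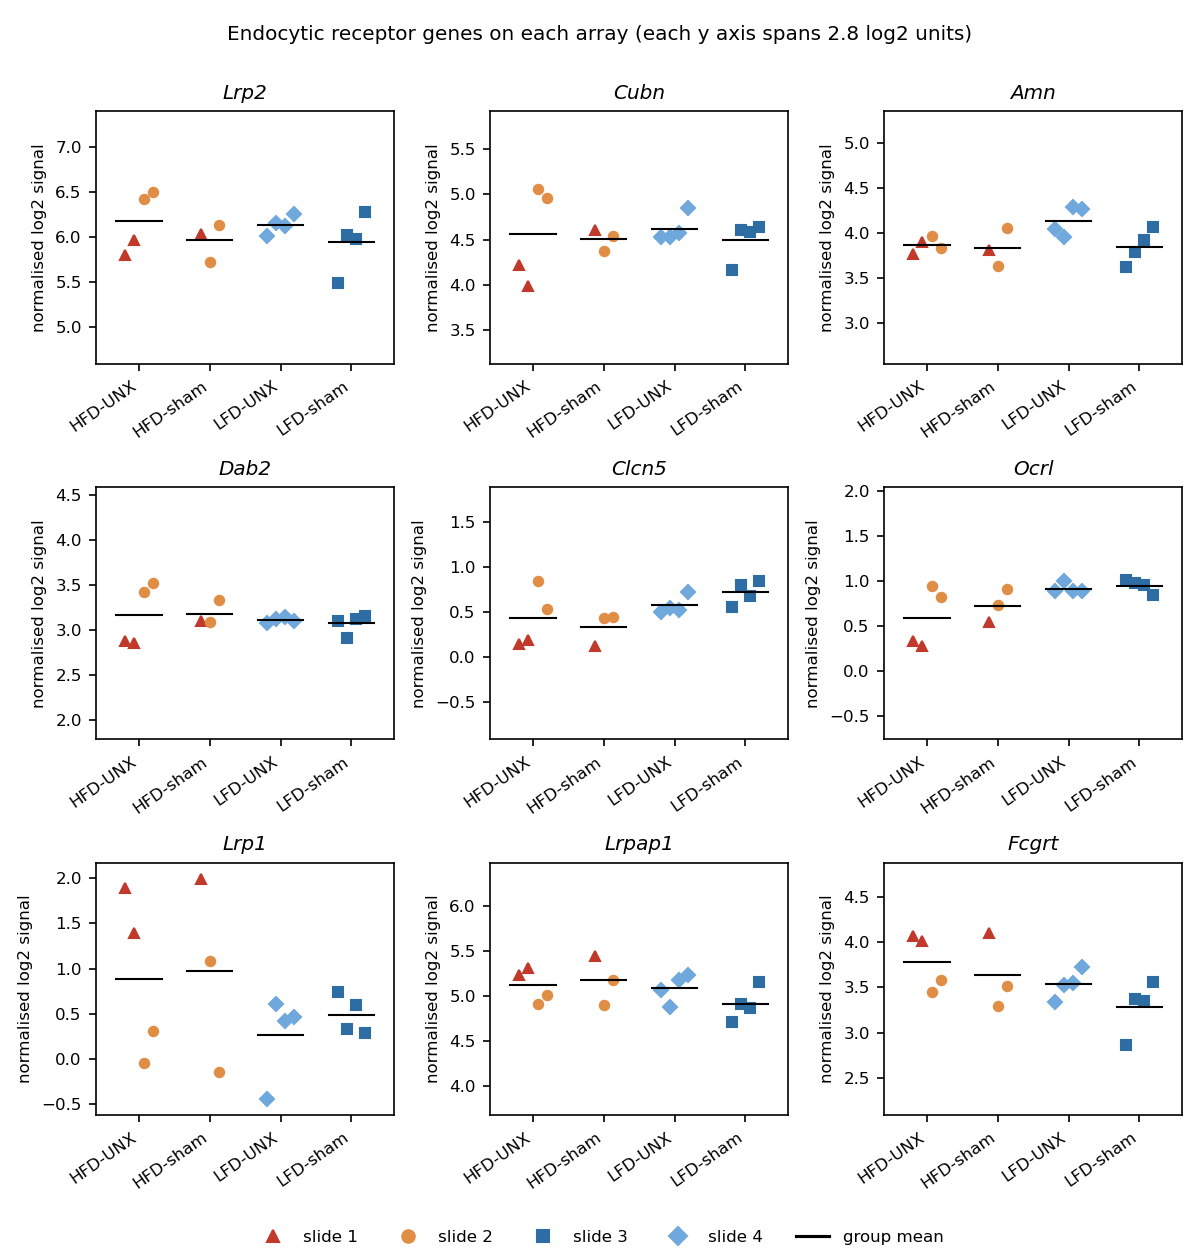
Normalised log2 signal (y axis) of the 9 members on each of the 15 arrays, grouped along the x axis as HFD-UNX, HFD-sham, LFD-UNX and LFD-sham, with the marker shape giving the slide and the bar the group mean. The 4 groups overlap for most members, the HFD-sham points of Clcn5 lie below all LFD-sham points, and the high-fat points of Lrp1 split by slide.

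The megalin signals of all 4 groups overlapped. Lrp2 (chr2:69424335-69586029, GRCm38.p6, as are all gene positions here) had log2 signals of 5.80, 5.97, 6.42 and 6.49 in HFD-UNX kidneys, 6.03, 5.72 and 6.13 in HFD-sham, 6.00, 6.15, 6.12 and 6.25 in LFD-UNX, and 5.49, 6.02, 5.98 and 6.28 in LFD-sham kidneys. The highest and the lowest arrays came from HFD-UNX and LFD-sham kidneys. The high-fat minus low-fat difference was 0.02 in sham mice (95% interval -0.41 to 0.45, limma adjusted p = 0.962) and 0.04 in UNX mice (-0.36 to 0.44, adjusted p = 0.910). The UNX minus sham difference was 0.19 on the low-fat diet (-0.21 to 0.59) and 0.21 on the high-fat diet (-0.22 to 0.64), with limma adjusted p-values of 1.00 and 0.999.

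Cubilin behaved much like megalin from array to array. Cubn (chr2:13276338-13491876) had log2 signals of 4.22, 3.98, 5.06 and 4.96 in HFD-UNX kidneys, 4.60, 4.38 and 4.54 in HFD-sham, 4.53, 4.52, 4.58 and 4.85 in LFD-UNX, and 4.17, 4.61, 4.58 and 4.64 in LFD-sham kidneys. HFD-UNX held both the 2 highest arrays (replicates 3 and 4, slide 2) and the lowest (replicate 2, slide 1), so its range enclosed every other group. The high-fat minus low-fat difference was 0.01 in sham mice (-0.49 to 0.50, limma adjusted p = 0.988) and -0.06 in UNX mice (-0.52 to 0.40, adjusted p = 0.877). A second, dimmer Cubn probe gave diet differences of 0.28 and 0.39 in sham and UNX mice, neither called. Against sham, UNX differed by 0.12 on the low-fat diet and by 0.05 on the high-fat diet, and the groups overlapped in both.

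Amnionless, the membrane anchor that carries cubilin to the surface, had the largest surgery difference of the 9 members on the low-fat diet, though it was not called. Amn (chr12:111271096-111276426) had log2 signals of 3.76, 3.89, 3.96 and 3.82 in HFD-UNX kidneys, 3.81, 3.63 and 4.05 in HFD-sham, 4.04, 3.95, 4.28 and 4.26 in LFD-UNX, and 3.62, 3.79, 3.92 and 4.06 in LFD-sham kidneys. LFD-UNX held the highest arrays, at 4.28 and 4.26, yet its other arrays, at 4.04 and 3.95, were below the highest LFD-sham array. UNX minus sham on the low-fat diet was 0.29 (0.01 to 0.57, unadjusted p = 0.0453 and adjusted p = 1.00 with limma), and slide 4 against slide 3 cannot be told apart from it. On the high-fat diet the same difference was 0.03 (-0.27 to 0.33), and the interaction, at -0.26 (-0.67 to 0.16), was not called.

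Dab2, the clathrin adaptor that binds the megalin tail, had overlapping groups too. Dab2 (chr15:6299788-6440715) had log2 signals of 2.88, 2.86, 3.42 and 3.51 in HFD-UNX kidneys, 3.10, 3.09 and 3.34 in HFD-sham, 3.08, 3.12, 3.14 and 3.10 in LFD-UNX, and 3.10, 2.91, 3.12 and 3.16 in LFD-sham kidneys. As with Lrp2 and Cubn, HFD-UNX replicates 3 and 4 were high and replicates 1 and 2 low, while the 4 LFD-UNX arrays lay between 3.08 and 3.14. Diet differences were 0.10 in sham mice (limma adjusted p = 0.712) and 0.06 in UNX mice (adjusted p = 0.835).

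The endosomal members Clcn5 and Ocrl had negative diet differences that did not pass the test by their brightest probe. Clcn5 (chrX:7153810-7319358) had log2 signals of 0.14, 0.19, 0.84 and 0.54 in HFD-UNX kidneys, 0.12, 0.43 and 0.44 in HFD-sham, 0.50, 0.54, 0.52 and 0.72 in LFD-UNX, and 0.55, 0.79, 0.67 and 0.85 in LFD-sham kidneys. All 3 HFD-sham arrays were below all 4 LFD-sham arrays, a separation in that direction shown by 14.5% of all genes (11.5% separated the other way), while the UNX groups overlapped. No other member separated the diets in sham mice, and none did in UNX mice, against 11.9% of all genes with HFD higher and 10.6% with HFD lower. High-fat minus low-fat was -0.38 in sham mice (-0.74 to -0.03, limma adjusted p = 0.134) and -0.15 in UNX mice (-0.47 to 0.18, adjusted p = 0.561). Without the arrays of slide 1 the UNX difference was 0.12. In sham mice the difference stayed negative under every alternative setting, from -0.59 to -0.28.

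In the fit to all arrays the probes of Clcn5 all gave negative diet differences, but these differed in size and in whether they were called. Of 3 probes, all well above background on all 15 arrays and all listed under the same RefSeq transcript, the brightest gave the values above and the next brightest gave -0.34 in sham and -0.12 in UNX mice. The dimmest read -2.41, -2.60, -2.30 and -2.90 in HFD-UNX kidneys, -2.50, -2.06 and -2.74 in HFD-sham, -1.54, -1.75, -1.48 and -1.30 in LFD-UNX, and -1.59, -1.65, -1.54 and -1.41 in LFD-sham kidneys. Every high-fat array was below every low-fat array on this probe. On the other probes all HFD-sham arrays were below all LFD-sham arrays, but the UNX groups overlapped. Over all genes, by the brightest probe, 14.5% separated with HFD lower in sham and 10.6% in UNX mice. The share over all probes was not analysed here, nor was the share that separates all high-fat from all low-fat arrays at once.

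With every kept probe fitted on its own (28214 probes, of which 11% were called between diets in sham and 12.3% in UNX mice), the dimmest Clcn5 probe fell by 0.89 in sham mice (SE 0.18, limma adjusted p = 0.00933) and by 1.03 in UNX mice (SE 0.17, adjusted p = 0.00232). It stayed past the threshold without any single array, with differences of -1.08 to -0.73 in sham and -1.12 to -0.92 in UNX mice, but not with the slide as a random block (adjusted p = 0.204 and 0.139). Where on the transcript each probe lies was not analysed here, so these values describe a probe and not the gene as a whole. With the mean of the gene's probes in place of the brightest, Clcn5 was called in both diet comparisons, beside 11.3% of all genes in sham and 12.1% in UNX mice.

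**Figure D2:**
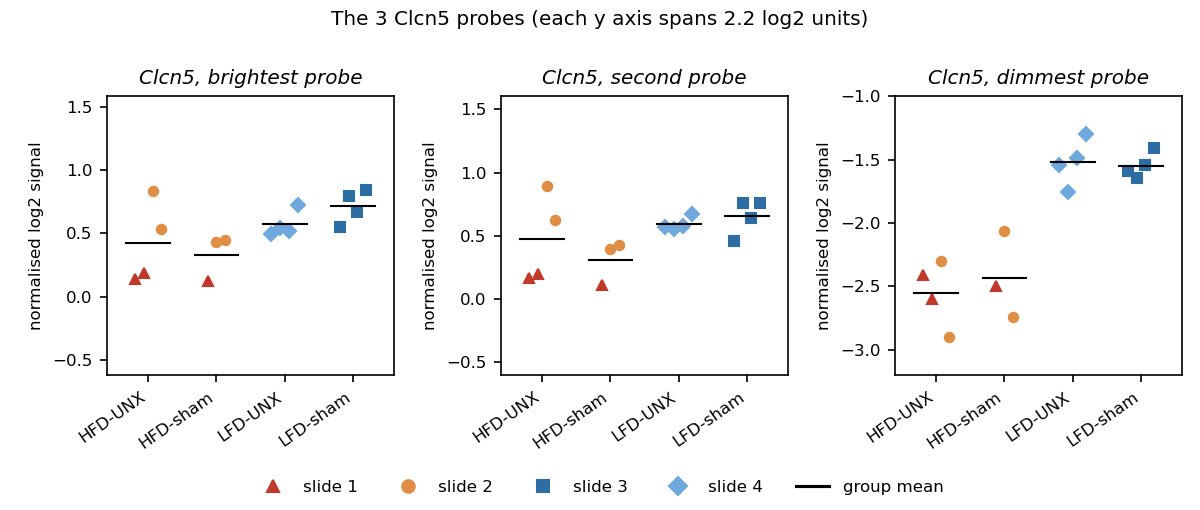
Normalised log2 signal (y axis) of the 3 Clcn5 probes on the 15 arrays, grouped along the x axis by diet and surgery. On the dimmest probe all high-fat arrays lie below all low-fat arrays. On the other probes the HFD-sham arrays lie below the LFD-sham arrays, while the HFD-UNX and LFD-UNX arrays overlap.

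Ocrl (chrX:47912418-47966428), the phosphatidylinositol phosphatase of coated pits and early endosomes, had log2 signals of 0.34, 0.28, 0.95 and 0.82 in HFD-UNX kidneys, 0.54, 0.73 and 0.91 in HFD-sham, 0.89, 1.00, 0.89 and 0.89 in LFD-UNX, and 1.01, 0.98, 0.96 and 0.84 in LFD-sham kidneys. The low-fat arrays were tightly grouped, and the high-fat arrays of slide 1 were the 3 lowest of all 15. High-fat minus low-fat was -0.22 in sham mice (limma adjusted p = 0.386) and -0.32 in UNX mice (-0.64 to -0.0011, adjusted p = 0.168), and a second probe gave -0.43 and -0.27, not called either. Without HFD-UNX replicate 3, the high slide 2 array, Ocrl was called in UNX mice at -0.44, beside 20.5% of all genes (16.6% in sham mice, with 0 members called).

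Lrp1 (chr10:127538157-127621148), a sister receptor of megalin that is found on many cell types outside the brush border, was the most variable member. Its log2 signals were 1.90, 1.39, -0.05 and 0.31 in HFD-UNX kidneys, 1.99, 1.08 and -0.15 in HFD-sham, -0.45, 0.61, 0.42 and 0.46 in LFD-UNX, and 0.74, 0.33, 0.60 and 0.28 in LFD-sham kidneys. The 3 highest arrays were the 3 arrays of slide 1, and the other 4 high-fat arrays ran from -0.15 to 1.08 and overlapped the low-fat ones. High-fat minus low-fat was 0.49 in sham mice (-0.57 to 1.54, limma adjusted p = 0.546) and 0.62 in UNX mice (-0.35 to 1.60, adjusted p = 0.385), with a standard error of 0.49 and 0.46. Without the arrays of slide 1 these differences were -0.020 and -0.13.

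Lrpap1 (chr5:35091490-35105699), the chaperone that keeps megalin and its relatives free of ligand on their way to the surface, had log2 signals of 5.23, 5.31, 4.91 and 5.01 in HFD-UNX kidneys, 5.44, 4.90 and 5.17 in HFD-sham, 5.07, 4.88, 5.18 and 5.23 in LFD-UNX, and 4.71, 4.91, 4.86 and 5.16 in LFD-sham kidneys. All groups overlapped. High-fat minus low-fat was 0.26 in sham (-0.08 to 0.60, limma adjusted p = 0.291) and 0.03 in UNX mice (adjusted p = 0.927), whereas a second probe gave -0.16 and -0.34, so that the direction depended on the probe.

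Fcgrt (chr7:45092993-45103822) encodes the heavy chain of the neonatal Fc receptor, which binds albumin and IgG in acid endosomes and spares them from lysosomes. Its log2 signals were 4.08, 4.02, 3.45 and 3.58 in HFD-UNX kidneys, 4.10, 3.29 and 3.51 in HFD-sham, 3.34, 3.53, 3.54 and 3.73 in LFD-UNX, and 2.87, 3.37, 3.35 and 3.57 in LFD-sham kidneys. The 3 arrays of slide 1 were again the highest. High-fat minus low-fat was 0.35 in sham (-0.12 to 0.82, limma adjusted p = 0.313) and 0.25 in UNX mice (adjusted p = 0.449), the UNX value being -0.018 without the arrays of slide 1, and UNX minus sham was 0.25 on the low-fat and 0.15 on the high-fat diet.

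**Figure D3:**
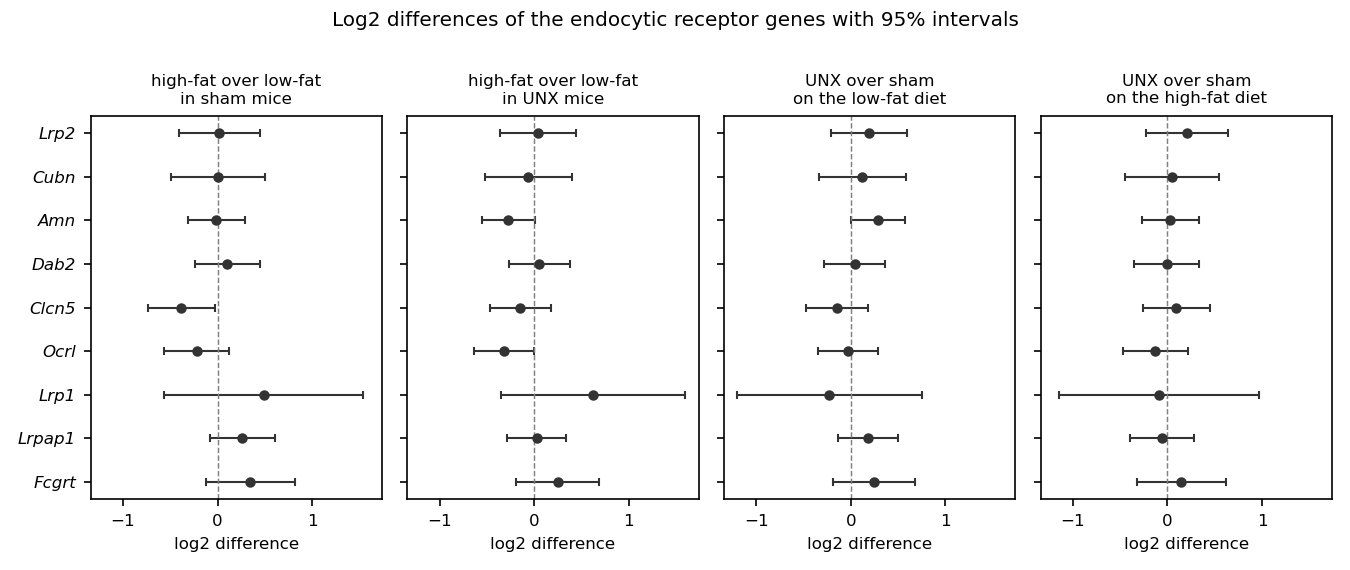
Log2 differences (x axis) of the 9 members in the diet and surgery comparisons, with points for the estimates and bars for the 95% intervals of the limma fit. No member passed the adjusted threshold, and the intervals of Lrp1 are the widest.

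Among the high-fat arrays, 1 member differed by slide past the threshold. With surgery in the fit, slide 1 minus slide 2 called 1 of 9 members, Lrp1, where 7.05% of all genes were called with limma. Lrp1 was 1.52 higher on slide 1 (SE 0.31, adjusted p = 0.0393), and Fcgrt (0.60, adjusted p = 0.0515) and Lrpap1 (0.35, adjusted p = 0.152) had positive differences that were not called. The other 6 members had negative differences, from -0.49 for Cubn to -0.05 for Amn, and none was called.

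Some markers of other cell types were also called between the slides, beside the 7.05% of all genes. Of 10 endothelial markers 2 were called higher on slide 1, all 10 being well above background on all 15 arrays, with a median difference of 0.73 and a summed log2 level of 5.56 to 5.84 on slide 1 against 5.24 to 5.63 on slide 2. Of 9 measured macrophage markers 2 were called higher (Cd163 was below the filter and Adgre1 and Csf1r were well above background on all 15 arrays), with a median difference of 0.41 and a summed level of 4.54 to 4.84 against 4.13 to 4.57. Of 20 proximal tubule markers 0 were called, the median difference was -0.04 and the summed level was 10.61 to 10.95 on slide 1 against 10.22 to 10.76 on slide 2. Of 8 podocyte, 8 fibroblast and mesangial and 10 adipocyte markers 0 were called, with median differences of 0.55, -0.13 and -0.78, while 2 of 16 loop, distal tubule and collecting duct markers were called lower and 1 of 12 liver markers higher. The part of these cell types in the Lrp1 difference was not tested.

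Within the slides, the surgery difference of the receptor pair on the high-fat diet had opposite signs. UNX minus sham was -0.15 on slide 1 and 0.53 on slide 2 for Lrp2, and -0.50 and 0.55 for Cubn. For Dab2 it was -0.23 and 0.25, and for Lrp1 it was -0.35 and -0.34. Slide 1 holds a single sham array, so its values have no replicate on that side, and the difference between slides was not tested. Against the low-fat mice, too, the high-fat arrays of slide 1 alone and of slide 2 alone gave different answers: without slide 2, 5 members were called in sham mice (Clcn5, Ocrl, Lrp1, Lrpap1 and Fcgrt, beside 30.1% of all genes) and 6 in UNX mice (Cubn, Dab2, Clcn5, Ocrl, Lrp1 and Fcgrt, beside 47.6%). That fit keeps 1 HFD-sham array, assumed to vary like the other groups, and 2 HFD-UNX arrays, so its sham calls set a single high-fat array against 4 low-fat ones. Without slide 1, 0 members were called in sham mice (beside 22.6% of all genes) and 1, Dab2, in UNX mice (beside 14.8%). With the slide as a fixed block, Clcn5, Ocrl and Fcgrt were called in sham mice (beside 27.6% of all genes) and Ocrl in UNX mice (beside 25.4%), and with the slide as a random block no member was called. The fixed block takes out only the difference between slides 1 and 2 among the high-fat arrays. It leaves diet and the slides of the low-fat arrays inseparable, so those calls too are between arrays that differ in slide and scan day.

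Lrp2 and Cubn followed each other more closely than either followed any other member. Likeness was measured as the root mean square difference between profiles, each gene centred on its own mean over the 15 arrays, among 13495 genes well above background on all of them, which share libraries, slides and scaling. By this measure Cubn ranked 69 among all genes for likeness to Lrp2 (0.162 log2 units), Dab2 ranked 349 (0.195), Amn 555 (0.208), and Lrp1 13187 (0.821). The genes nearest to Lrp2 were Ugt1a6b (0.111), Atp6v0e (0.111), Krt10 (0.112) and Ogfod3 (0.117). Those nearest to Cubn were Tmem139 (0.106), Txndc17 (0.110), 2300009A05Rik (0.112) and Tmem132a (0.117). The spread to be matched was small, a standard deviation of 0.26 for Lrp2 and 0.29 for Cubn over the 15 arrays.

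Around the receptors, single genes of coated pits and recycling endosomes passed the test with diet, among the 13.8% in sham and 14% in UNX mice called over all genes. Of 26 measured genes of endosome sorting and recycling, 3 were called higher and 2 lower on the high-fat diet in sham mice, and 3 higher and 4 lower in UNX mice. Of 20 genes of the clathrin coat and its adaptors, 1 was called higher in sham and 2 in UNX mice, with 0 lower. Of 23 genes of acidification and lysosomal function, among them proton pump subunits and lysosomal proteases, 0 were called in either. The counts of the coat and lysosome lists lie under the share over all genes, and those of the sorting and recycling list lie above it. Neither departure was tested. None of these lists had a member called in either surgery comparison.

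Rab5c, a small GTPase of early endosomes, had log2 signals of 4.21, 4.41, 4.64 and 4.54 in HFD-UNX and 4.68, 4.60 and 4.53 in HFD-sham kidneys, against 4.02, 3.88, 3.92 and 3.86 in LFD-UNX and 4.05, 3.54, 3.64 and 3.85 in LFD-sham kidneys. It rose by 0.83 in sham mice (limma adjusted p = 0.00311) and by 0.53 in UNX mice (adjusted p = 0.0160), and the diets did not overlap. In that direction 11.5% of all genes separated in sham and 11.9% in UNX mice. Rab11a, the GTPase of recycling endosomes through which megalin returns to the surface, read 1.94, 1.93, 1.58 and 1.94 in HFD-UNX and 1.95, 1.53 and 1.68 in HFD-sham kidneys, against 1.18, 1.14, 1.30 and 1.38 in LFD-UNX and 0.75, 1.17, 1.02 and 1.21 in LFD-sham kidneys. It rose by 0.68 in sham (adjusted p = 0.0113) and 0.60 in UNX mice (adjusted p = 0.0124).

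Rab11fip3, an effector that binds Rab11, went the other way. Its log2 signals were 4.59, 4.34, 4.26 and 4.61 in HFD-UNX and 4.83, 4.49 and 4.52 in HFD-sham kidneys, against 5.21, 5.01, 5.37 and 5.14 in LFD-UNX and 5.37, 5.08, 5.22 and 5.33 in LFD-sham kidneys. It fell by 0.63 in sham (limma adjusted p = 0.0113) and by 0.73 in UNX mice (adjusted p = 0.00322), again with no overlap. Such a separation, with HFD lower, was shown by 14.5% of all genes in sham and 10.6% in UNX mice. Snx17, a sorting nexin that recycles receptors of the Lrp1 family, fell by 0.35 in sham (adjusted p = 0.0402) and 0.32 in UNX mice (adjusted p = 0.0425), a call lost in 17 of 30 alternatives in either group. The difference in Snx17 was narrow, at 3.86 to 4.22 over the 7 high-fat arrays and 4.34 to 4.47 over the 8 low-fat ones.

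Among the coat genes, Hip1, an endocytic protein that links clathrin to actin, rose by 0.57 in sham (limma adjusted p = 0.0443) and by 0.64 in UNX mice (adjusted p = 0.0199). Its sham call was lost in 17 and its UNX call in 9 of 30 alternatives. Itsn1, a scaffold of coated pits, read 6.01, 6.04, 7.05 and 6.46 in HFD-UNX and 5.48, 5.36, 5.33 and 5.50 in LFD-UNX kidneys, a rise of 0.97 (adjusted p = 0.00591). In sham mice the Itsn1 difference was 0.52 (adjusted p = 0.116). With the mean of the probes of Itsn1 in place of the brightest, these differences were 0.13 and -0.15 in UNX and sham mice, so the call rested on the probe.

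Of 15 measured genes among other members of the low-density lipoprotein receptor family and the partners of these receptors, 1 was called higher and 1 lower in sham mice, and 2 higher and 1 lower in UNX mice, near the 13.8% and 14% called over all genes. B2m, the light chain that Fcgrt needs to reach the surface, had log2 signals of 4.82, 4.39, 4.49 and 4.65 in HFD-UNX and 4.67, 4.33 and 4.63 in HFD-sham kidneys, against 3.46, 3.69, 3.86 and 3.71 in LFD-UNX and 3.70, 3.75, 3.62 and 4.03 in LFD-sham kidneys. It rose by 0.77 in sham (limma adjusted p = 0.00592) and 0.91 in UNX mice (adjusted p = 0.00148), beside the uncalled 0.35 and 0.25 of Fcgrt itself. B2m is also the light chain of MHC class I molecules on nearly all cells.

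Lrp6, a Wnt co-receptor of the same receptor family, had log2 signals of 2.12, 2.00, 2.55 and 1.93 in HFD-UNX and 2.05, 2.66 and 2.33 in HFD-sham kidneys, against 3.35, 2.94, 2.97 and 2.99 in LFD-UNX and 3.48, 3.21, 3.16 and 3.10 in LFD-sham kidneys. Every high-fat array was below every low-fat array. A separation in this direction was shown by 14.5% of all genes within sham mice alone and by 10.6% within UNX mice alone. The share that separates all high-fat from all low-fat arrays at once was not analysed here. Lrp6 fell by 0.89 in sham (limma adjusted p = 0.00769) and by 0.91 in UNX mice (adjusted p = 0.00385).

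**Figure D4:**
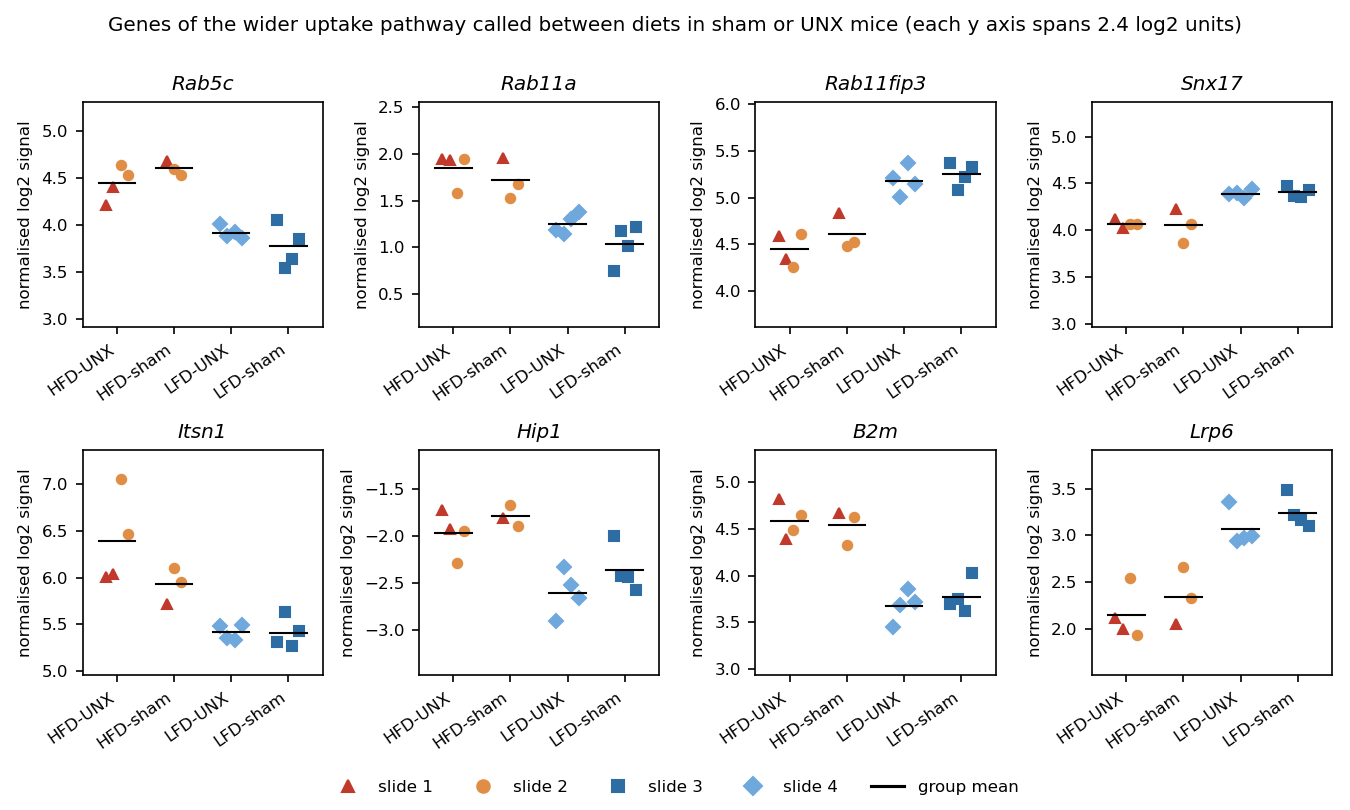
Normalised log2 signal (y axis) of 8 genes of the surrounding pathway on the 15 arrays, grouped along the x axis as HFD-UNX, HFD-sham, LFD-UNX and LFD-sham. Rab5c, Rab11a, Hip1, Itsn1 and B2m are higher and Rab11fip3, Snx17 and Lrp6 lower on the high-fat arrays, with no overlap of diets within either surgery, although the Itsn1 difference in sham mice was not called. The genes shown were picked among those called. Over all genes, HFD lay wholly above LFD for 11.5% in sham and 11.9% in UNX mice, and wholly below for 14.5% and 10.6%.

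Other proximal tubule genes were called with diet about as often as all genes were (13.8% in sham and 14% in UNX mice). Of 20 markers, 1 was called higher and 1 lower with diet in sham mice, and 1 higher and 2 lower in UNX mice, and 0 in either surgery comparison. Slc13a3, a dicarboxylate transporter, rose by 0.62 in sham (limma adjusted p = 0.0302) and 0.61 in UNX mice (adjusted p = 0.0220). Slc34a3, a sodium-phosphate cotransporter of the brush border, fell by 0.90 in sham (adjusted p = 0.0258) and by 1.04 in UNX mice (adjusted p = 0.00793). Slc5a12, a sodium-coupled lactate transporter, fell by 0.69 in UNX mice (adjusted p = 0.0302) and had a difference of -0.60 in sham mice (adjusted p = 0.0700).

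With the slide as a random block, none of the 11 pathway and proximal tubule genes named above for diet passed the threshold between diets (limma adjusted p from 0.121 to 0.465), and 14 and 24 of all 16032 genes were called in sham and UNX mice (0.0873% and 0.150%). By the layout of the slides, whatever the block fit gives, the diet calls of these genes are calls between arrays that also differ in scan day.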

How the data were processed

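Total RNA of whole frozen kidney (100 ng) was labelled with Cy3 dye and put on single-colour Agilent arrays, 15 in 4 groups, as the labels and file headers record. The deposited intensity values (processed signal) are the authors' output of Agilent Feature Extraction, version 10.7.3.1 per the file headers (10.7 in the submitters' notes on processing), with background subtraction and detrending inside each array. The authors' deposited value table held this same signal, at 0.995 to 1.005 times the scanner values, on a linear scale with no centring. No step between arrays is recorded.

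From these, the log2 signal was taken relative to the 75th percentile of the non-control spots of its array. Flagged spots (74 to 273 per array) were left out, and a probe was kept if it was well above background on 3 or more arrays (28214 probes). Of 39429 probes, 27234 were named by RefSeq accession through a gene table of GRCm38.p6, which also gave the printed gene positions. The brightest probe stood for each symbol (16032 genes, 43 with a missing value on some array, none of them a member). Limma 3.58.1 with statmod 1.5.0 in R 4.3.3 was fitted to all arrays with 1 mean per group and eBayes, and p-values were adjusted by Benjamini-Hochberg over all genes. The fit was tested on simulated data. The number of arrays limits the precision, and p-values rest on the spread between arrays labelled as separate mice, pooled over the 4 groups. Each high-fat group lay on slides 1 and 2, and each low-fat group on a single slide. The pooled spread therefore also holds differences between slides 1 and 2, in the low-fat surgery comparison too. The low-fat groups add no slide differences to it.

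Replicate numbers shared by the groups were checked as pairs: deviations from group means correlated at -0.15 to 0.44 over 21 same-numbered pairs (median -0.01), so the numbers did not pair the arrays. No mean spot signal was found in the files, so the alternative background correction (normexp, offset 50) used the deposited raw median spot intensity. The members and gene lists were chosen with earlier results of these data known. Named were all members, up to 4 called genes per comparison with the lowest p-values from each pathway list and the proximal tubule list, and the 4 genes most like Lrp2 and Cubn. 1 gene that this rule names is not reported here. Protein and probe sequences were not used here.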

Additional observations from a re-analysis of the deposited data

Results flagged for a closer look

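Single arrays stood apart from the rest of their group in 5 of 63 group profiles of 4 arrays, by a gap to the nearest array that exceeded the 95% critical value of Dixon's test. Chance gives such a gap in about 1 in 20 groups. For the members these were Cubn in LFD-UNX replicate 4, the highest of its group at 4.85, Cubn in LFD-sham replicate 1, the lowest at 4.17, and Ocrl in LFD-UNX replicate 2, the highest at 1.00. Around the receptors they were Rab11a in HFD-UNX replicate 3, the lowest at 1.58, and Lrp6 in LFD-UNX replicate 1, the highest at 3.35. No cause of these values was tested.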

How the results depend on the processing

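No member was called in any comparison with quantile normalization, cyclic loess, centring on proximal tubule markers, the alternative background correction, no filter on dim probes, a trended robust prior, or a fit of only the arrays compared. Other settings called members between diets. The mean of all kept probes and every probe fitted on its own (added after the data were seen) each called 1, Clcn5, in both diet comparisons. Slide as a fixed block called 3 members in sham mice (Clcn5, Ocrl and Fcgrt) and 1 in UNX mice (Ocrl), beside 27.6% and 25.4% of all genes; it takes out only slide 1 against slide 2 among the high-fat arrays, and diet stays confounded with slide. Leaving out 1 array at a time called 0 to 1 members in UNX mice, the 1 being Ocrl without HFD-UNX replicate 3 (beside 20.5% of all genes). Without slide 1 or slide 2, choices also added after the data were seen, the counts were 1 in UNX mice without slide 1, and 5 in sham and 6 in UNX mice without slide 2, where the only HFD-sham array left is assumed to vary like the other groups. The cause of these changes was not tested. Slide as a random block (correlation 0.408) called 0 members and 14 and 24 genes in all between diets, against 2208 and 2245 without it. What depth limits here is the number of arrays, since all members were well above background on all of them.

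The replicate numbers did not pair the arrays (3 of 15 arrays correlated best with an array of their own number). A fit with the replicate block called 0 members in each of the 5 comparisons, and 1753 and 2141 genes in all between diets in sham and UNX mice. Its differences of opposite sign were for diet in sham mice Amn 0.021, for surgery on the high-fat diet Cubn -0.035 and Amn -0.0047, and for the interaction Lrp2 -0.068.

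Differences changed sign under some settings, most of them small, but also Lrp1 (0.49 in sham and 0.62 in UNX mice), Fcgrt (0.25 in UNX mice) and Itsn1 (0.52 in sham mice) for diet and Lrp2 (0.21) for surgery on the high-fat diet, and apart from Dab2 below none of those that did was called. The cause of these changes was not tested. With quantile normalization they were for diet in sham mice Amn 0.024, for diet in UNX mice Lrp2 -0.020 and Lrpap1 -0.033, for surgery on the high-fat diet Cubn -0.056 and Amn -0.056, and for the interaction Lrp2 -0.059. With cyclic loess they were for diet in sham mice Amn 0.053, for surgery on the high-fat diet Cubn -0.025 and Amn -0.033, and for the interaction Lrp2 -0.070. With centring on proximal tubule markers they were for diet in sham mice Amn 0.039, and for surgery on the high-fat diet Cubn -0.00038 and Amn -0.021. With the alternative background correction they were for diet in sham mice Amn 0.020, for surgery on the low-fat diet Dab2 -0.15, for surgery on the high-fat diet Cubn -0.031 and Amn -0.050, and for the interaction Lrp2 -0.0066 and Dab2 0.064. With the mean of all kept probes they were for diet in sham mice Itsn1 -0.15, for diet in UNX mice Cubn 0.17 and Lrpap1 -0.16, and for the interaction Cubn 0.024 and Ocrl 0.032. With slide as a random block they were for diet in sham mice Lrp2 -0.015 and Cubn -0.050, for surgery on the high-fat diet Dab2 0.039, and for the interaction Lrp1 -0.040. With slide as a fixed block they were for diet in sham mice Lrp2 -0.031 and Cubn -0.074, for surgery on the high-fat diet Dab2 0.059, and for the interaction Cubn 0.013, Dab2 0.020 and Lrp1 -0.12. Without slide 1 they were for diet in sham mice Lrp2 -0.013, Cubn -0.042 and Lrp1 -0.020, for diet in UNX mice Cubn 0.39, Clcn5 0.12, Lrp1 -0.13, Lrpap1 -0.13 and Fcgrt -0.018, for surgery on the high-fat diet Dab2 0.25 and Ocrl 0.064, and for the interaction Cubn 0.44, Dab2 0.21, Ocrl 0.10 and Lrp1 -0.11. Without slide 2, where Dab2 in UNX mice was called, they were for diet in UNX mice Lrp2 -0.25 and Dab2 -0.24, for surgery on the high-fat diet Lrp2 -0.15, Cubn -0.50 and Fcgrt -0.053, and for the interaction Lrp2 -0.34 and Lrp1 -0.12.

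Leaving out 1 array at a time, the members whose sign changed ran over these ranges. For diet in sham mice they were Lrp2 -0.13 to 0.14, Cubn -0.10 to 0.072, Amn -0.12 to 0.085 and Lrp1 -0.020 to 1.05. For diet in UNX mice they were Lrp2 -0.069 to 0.16, Cubn -0.23 to 0.13, Dab2 -0.059 to 0.16 and Lrpap1 -0.044 to 0.093. For surgery on the low-fat diet they were Dab2 -0.014 to 0.068 and Lrp1 -0.34 to 0.011. For surgery on the high-fat diet they were Cubn -0.12 to 0.24, Amn -0.069 to 0.14, Dab2 -0.12 to 0.10, Clcn5 -0.044 to 0.19, Lrp1 -0.65 to 0.42, Lrpap1 -0.19 to 0.078 and Fcgrt -0.025 to 0.38. For the interaction they were Lrp2 -0.10 to 0.17, Cubn -0.24 to 0.12, Dab2 -0.16 to 0.057, Ocrl -0.22 to 0.0071, Lrp1 -0.42 to 0.64 and Fcgrt -0.27 to 0.13.

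Around the receptors, the diet calls of Rab5c, Rab11a, Rab11fip3, B2m and Lrp6 held without each single array, and were lost with the slide as a random block. The alternative background correction also ended the calls of Rab5c and Rab11a in UNX mice and of Rab11fip3 and Lrp6 in sham mice. In sham mice Rab11a was called in 28 and Rab11fip3 in 27 of 30 alternatives, so the settings named here are not all that ended their calls. Single arrays ended other calls, by left-out array: Slc34a3 in sham mice (HFD-sham 2 or 3, LFD-sham 2, 3 or 4), Slc13a3 in sham mice (HFD-sham 1 or 2, LFD-sham 1, 2 or 3) and in UNX mice (HFD-UNX 4, LFD-UNX 1, 3 or 4), Slc5a12 in UNX mice (HFD-UNX 1 or 2, LFD-UNX 2, 3 or 4) and Hip1 in UNX mice (HFD-UNX 1 or 2, LFD-UNX 1 or 4). The calls of Snx17 and the sham call of Hip1 were lost without most of the arrays compared. The Itsn1 difference in sham mice turned to -0.15 with the mean of its probes.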
